A study of Mus musculus with 4 samples.

Results

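Keratinocytes (KCs) secrete a set of innate defence proteins, and 8 of their genes were followed here in RNA sequencing of cultured tail KCs: Lcn2, Slpi, Defb1, Defb14, Camp, Saa3, C3 and Cfb. They were picked by gene name out of 25814 genes listed in the tables, and each name matched 1 gene. Lcn2 was put on the list because it had been seen to be higher in the KCs labelled Nfat5-/-, so its difference between the genotypes is described without a test. The cells were primary KCs from the tails of adult 129/sv mice, either Nfat5-/- or wild type (WT) siblings, grown untreated in serum-free medium with low calcium. There were 2 libraries per genotype, labelled as replicates 1 and 2. The labels do not say whether the replicates came from separate mice. NFAT5 is a transcription factor of the osmotic stress response, and the genotype of these mice is not limited to KCs. The study's methods describe its 129sv mice as permanently hypernatremic and do not say whether this holds for both genotypes.

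The epidermis defends itself in part through proteins that its KCs release. Lipocalin 2, encoded by Lcn2, binds bacterial siderophores and so withholds iron from bacteria, SLPI blocks serine proteases of the chymotrypsin type, and beta-defensins and the cathelicidin peptide made from Camp damage microbial membranes. SAA3 is an acute phase protein, C3 is the central component of the complement cascade, and factor B, encoded by Cfb, forms the C3-cleaving enzyme of its alternative pathway. In skin, many of these genes are known to respond to interleukin-1, interleukin-17 and interleukin-36 and to signalling through NF-kB and C/EBP factors.

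The libraries held between 16219445 and 23494436 gene reads. The smallest level that could be shown, 3 reads, was 0.128 to 0.185 CPM (counts scaled to library size). All 10 KC markers were present, with a summed level of 11490 to 13320 RPKM (reads scaled to exon length and library size). The reads of Nfat5 itself did not separate the labels, with 408 and 929 in WT libraries against 715 and 770 in those labelled Nfat5-/-. The sources used here do not give the deleted part of the gene, so reads over the whole gene check the labels in neither direction, and the groups are called here by their labels. Over all genes tested, 1.27% passed the edgeR test at an adjusted p of 0.05, 14.6% had an unadjusted p under 0.05, and DESeq2 called 3.22%. The counts given for each list of genes stand against these shares.

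The 8 genes spanned the whole range from abundant to absent. Slpi was the most abundant in both groups, at 59.1 ± 5.01 RPKM (SD, n = 2) in WT against 50.4 ± 19.6 RPKM (SD, n = 2) in KCs with the Nfat5-/- label. In WT it was followed by C3 at 5.53 ± 2.58 RPKM (SD, n = 2), then by Defb14 and Defb1, whose WT libraries overlapped. Lcn2 came after them, ahead of Cfb, Saa3 and Camp. In the libraries labelled Nfat5-/- the order after Slpi was Defb14, Lcn2, C3 and Defb1, and there the libraries of Lcn2 and C3 overlapped. Defb14 and Lcn2 thus had lower means than C3 in WT and higher means than C3 in the other group, while Cfb, Saa3 and Camp came last in both groups.

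**Figure D1:**
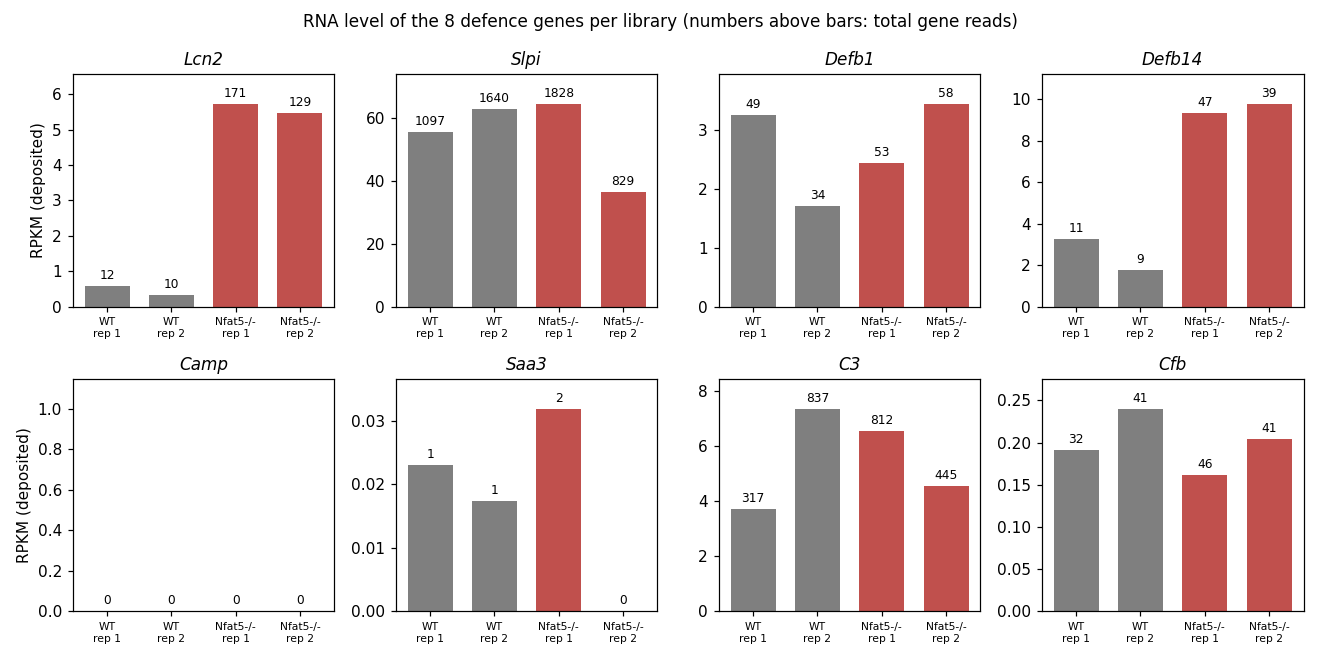
RNA level of the 8 members in each library, in RPKM on the vertical axis (scales differ between panels), with the total gene reads printed above each bar; grey bars are WT and red bars are the libraries labelled Nfat5-/-. Lcn2 and Defb14 are higher in both red bars than in both grey ones, whereas the groups overlap for Slpi, Defb1, C3, Saa3 and Cfb, and Camp has no read.

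Lcn2 (ENSMUSG00000026822) lies on the minus strand of chromosome 2, from 32384633 to 32388252 on GRCm38. Its reads numbered 12 in WT replicate 1 and 10 in WT replicate 2, against 171 in Nfat5-/- replicate 1 and 129 in Nfat5-/- replicate 2. Both WT libraries were low, and the groups did not overlap. In RPKM, which accounts for depth, the level was 0.584 and 0.329 in WT libraries against 5.71 and 5.47 in those labelled Nfat5-/-. The group means were 0.456 ± 0.180 RPKM (SD, n = 2) and 5.59 ± 0.172 RPKM (SD, n = 2), a ratio of 12.2, while the WT libraries differed from each other 1.78-fold. The lower of the libraries labelled Nfat5-/- was 9.36 times the higher WT library. The fitted log2 fold change was 3.60 (SE 0.30), given as a description. On log2(RPKM + 1), which understates the change of low genes, it was 2.18 (SE 0.13).

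Spliced reads were found for Lcn2 in each library. All of its 320 exon reads were placed at a single site, 90 of its 322 gene reads crossed an exon junction, and 2 lay in introns. The junction reads, at 6 and 3 in WT libraries against 47 and 34 in those labelled Nfat5-/-, followed the same order as the gene reads. The WT level was not at the floor: 95% exact binomial intervals, which cover counting error only, ran from 0.382 to 1.29 CPM in WT replicate 1 and from 0.222 to 0.851 CPM in WT replicate 2. They ran from 6.23 to 8.46 CPM and from 5.78 to 8.22 CPM in the other group.

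Lcn2 is also known as a product of neutrophils, so the markers of that cell type were read beside it. The neutrophil genes Elane, Mmp8 and Fpr1 had 0 reads in every library. Of the 12 markers, 8 stayed at or under 3 reads in each library. Leaving out S100a8 and S100a9, which KCs also make, the other 10 markers summed to 9 and 4 reads in WT and to 28 and 13 reads in the libraries labelled Nfat5-/-. Ltf, the gene of lactoferrin, held 16 of the 28 reads in replicate 1 and 2 of the 13 in replicate 2. Cxcr2 had 3 and 2 reads in WT libraries against 6 and 8 in those labelled Nfat5-/-, and Ly6g had 0 and 0 against 1 and 1. Of these 10 markers 3 were higher in both libraries labelled Nfat5-/-, 0 were lower in both, and 0 passed the filter on low counts. The sum of the 10 markers was higher in both libraries labelled Nfat5-/-, and its part in the Lcn2 difference was not tested. In RNA from a whole culture, a change in the share of cells that make a transcript and a change in RNA per cell cannot be told apart.

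The promoter of Lcn2 is known for an NF-kB site near the transcription start. RefSeq promoter windows (GRCm38.p6), taken as the 250 bases before the start, were found for 5 of the 8 members: Lcn2, Slpi, Camp, Saa3 and C3. They were searched on both strands for the general form of an NF-kB site, which is GGG and CC with 5 bases of any kind between them, for TTNNGNAA, a loose form of a C/EBP site, and for TGGAAA, the core that NFAT proteins bind. Overlapping matches were counted, and each match is a description of letters only. Over all 32851 windows, 45.8%, 36.8% and 18.6% held at least 1 match, so none of these motifs is rare. Annotated exons covered 197 of the 250 bases of the Lcn2 window, 161 for Camp, 24 for Saa3 and 0 for Slpi and C3. A pair of windows is shown because the 2 genes followed different patterns across the libraries: the exon-free stretch of the Lcn2 window (chr2:32387798-32387850, minus strand) and the whole C3 window (chr17:57228137-57228386, minus strand), both 5′ to 3′ with matches in capitals.
Lcn2: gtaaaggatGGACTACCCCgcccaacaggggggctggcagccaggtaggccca
C3: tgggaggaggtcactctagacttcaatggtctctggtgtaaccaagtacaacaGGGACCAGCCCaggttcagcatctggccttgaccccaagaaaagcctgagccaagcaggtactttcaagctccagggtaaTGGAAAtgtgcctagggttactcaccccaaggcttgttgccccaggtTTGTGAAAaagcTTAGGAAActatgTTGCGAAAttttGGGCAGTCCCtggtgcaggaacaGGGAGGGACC

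In the Lcn2 window the match to the NF-kB form began 102 bases before the start, and a match to the C/EBP form lay farther out, in a part that GENCODE annotates as exon of other Lcn2 transcripts. C3 held 4 matches to the NF-kB form, 3 to the C/EBP form and 1 to the NFAT core. Slpi held 3 to the C/EBP form and 0 to the NF-kB form, Saa3 held 4 to the C/EBP form and 2 to the NFAT core, and the Camp window held 0 of any. A member with little or no RNA could thus hold as many matches as one with much, as Saa3 did.

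Defb14 was the other member whose groups did not overlap. Defb14 (ENSMUSG00000046354, chromosome 8, 19194357 to 19195212, plus strand) encodes mouse beta-defensin 14, a cationic peptide of the epidermis whose human counterpart is beta-defensin 3. Its reads numbered 11 and 9 in WT libraries against 47 and 39 in those labelled Nfat5-/-. Its level was 3.24 and 1.77 RPKM in WT against 9.36 and 9.76 RPKM in the other group. Both libraries labelled Nfat5-/- lay above both WT libraries, with a ratio of the group means of 3.81. The log2 fold change was 1.94 (SE 0.39), and it missed the threshold in the edgeR quasi-likelihood test, with an adjusted p of 0.0747 over all genes (unadjusted p = 0.00153). It passed in limma-trend on log2(RPKM + 1), with a log2 difference of 1.62 and an adjusted p of 0.0137, and in edgeR without a filter on low counts (adjusted p = 0.000381), where 6.3% of all genes passed. It did not pass in DESeq2 (adjusted p = 0.111). All 103 exon reads were uniquely placed, and 43 reads crossed its single intron.

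Defb1 (ENSMUSG00000044748, chromosome 8, 21776599 to 21795185, plus strand) encodes beta-defensin 1, a defensin that many epithelia make at rest. Its reads numbered 49 and 34 in WT libraries against 53 and 58 in those labelled Nfat5-/-, or 3.24 and 1.71 against 2.43 and 3.42 RPKM. The groups overlapped, with a log2 fold change of 0.26 (SE 0.38, adjusted p = 0.810 in edgeR). The sign turned when WT replicate 2 or Nfat5-/- replicate 2 was left out, to -0.16 and -0.01. In RPKM the WT libraries of the 2 defensin genes overlapped, and Defb14 was the higher of them in both libraries labelled Nfat5-/-. In reads, which do not account for length, Defb1 was the higher in all 4 libraries.

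The coding sequences of both defensins are shown because for Defb14 the counts rest on these bases alone, and to set the cysteine codons of both side by side. The annotated Defb14 transcript in GENCODE M21 (GRCm38) is 204 bases long and all of it is coding, so reads from the untranslated ends of the real messenger RNA would not be counted and its RPKM rests on that length. The Defb1 transcript has 872 bases, of which 210 are coding. Codons for cysteine, the residue whose bridges hold the defensin fold, are in capitals, with 6 in Defb14 and 7 in Defb1.
Defb14: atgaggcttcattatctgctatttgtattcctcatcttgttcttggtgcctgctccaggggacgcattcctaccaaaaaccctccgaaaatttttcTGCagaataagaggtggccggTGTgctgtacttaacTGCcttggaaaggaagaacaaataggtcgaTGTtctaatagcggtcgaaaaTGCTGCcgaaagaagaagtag
Defb1: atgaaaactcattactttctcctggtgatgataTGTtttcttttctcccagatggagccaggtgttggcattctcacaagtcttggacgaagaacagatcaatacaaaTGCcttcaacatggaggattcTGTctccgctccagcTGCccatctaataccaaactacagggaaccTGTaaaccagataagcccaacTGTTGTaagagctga

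No further beta-defensin gene reached a testable level. Of 40 other beta-defensin genes in the tables, 29 had 0 reads in every library, and the other 11 never exceeded 5 reads in a library. Together these 40 genes held 34 reads over the 4 libraries, against 194 for Defb1 and 106 for Defb14, and none of them passed the filter on low counts.

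Camp (ENSMUSG00000038357, chromosome 9, 109847379 to 109849617, minus strand) had 0 reads in all 4 libraries. With 79972283 gene reads in all, 0 reads allow a level of up to 0.0375 CPM over the series. Saa3 (ENSMUSG00000040026, chromosome 7, 46711998 to 46715700, minus strand) had 1 and 1 reads in WT libraries against 2 and 0 in those labelled Nfat5-/-, all at or below 3 reads, and of its 4 reads 2 were uniquely placed. Neither gene passed the filter on low counts of the main fit. Without that filter Saa3 entered the edgeR fit and did not pass. A difference between the genotypes was not detectable for these 2 genes at this depth. Among 13 other acute phase genes, 5 had 0 reads and 3 were tested, of which none passed in edgeR or DESeq2 and 1 had an unadjusted p under 0.05. The one named by its level, Cd14, the receptor for bacterial lipopolysaccharide, had 136 and 167 reads in WT libraries against 211 and 144 in those labelled Nfat5-/- (log2 fold change 0.07, SE 0.18, adjusted p = 0.890 in edgeR).

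Slpi (ENSMUSG00000017002, chromosome 2, 164354070 to 164389095, minus strand) had 1097 and 1640 reads in WT libraries against 1828 and 829 in those labelled Nfat5-/-. In RPKM these were 55.6 and 62.6 against 64.2 and 36.5. The highest and the lowest library were both labelled Nfat5-/-, so the groups overlapped fully. The log2 fold change was -0.21 (SE 0.23, adjusted p = 0.723 in edgeR), and it turned to 0.12 without Nfat5-/- replicate 2.

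SLPI belongs to the whey acidic protein (WAP) family, most of whose genes lie together on chromosome 2. Of 18 other WAP-domain genes, 11 had 0 reads and 2 were tested, and neither passed in edgeR, although Wfdc2 had an unadjusted p under 0.05. Wfdc2, which encodes a small secreted WAP protein of epithelia, had 3172 and 5743 reads in WT libraries against 10352 and 6556 in those labelled Nfat5-/-. It was higher in both of the latter, with a log2 fold change of 0.80 (SE 0.17, adjusted p = 0.0807 in edgeR). It passed in DESeq2, with an adjusted p of 0.000332. Wfdc18 had 30 and 77 reads in WT libraries against 25 and 77 in those labelled Nfat5-/-, so that its replicates differed more than its groups. Slpi and its neighbour Wfdc2 thus did not share their order across the libraries.

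C3 (ENSMUSG00000024164, chromosome 17, 57203970 to 57228136, minus strand) had 317 and 837 reads in WT libraries against 812 and 445 in those labelled Nfat5-/-. Its level was 3.70 and 7.35 RPKM in WT against 6.56 and 4.54 RPKM in the other group. The WT libraries enclosed the other group, and the spread within WT was 1.99-fold, wider than the difference between the group means. The log2 fold change was 0.02 (SE 0.30, adjusted p = 0.990 in edgeR). It turned to -0.38 without WT replicate 1 and to -0.26 without Nfat5-/- replicate 1, so its sign was set by single libraries.

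Cfb (ENSMUSG00000090231, chromosome 17, 34856374 to 34862518, minus strand) had 32 and 41 reads in WT libraries against 46 and 41 in those labelled Nfat5-/-. Introns held 114 of its 160 reads (71.2%), against 0.621% for Lcn2 and 0.124% for C3. Its exon reads were 9 and 15 in WT against 11 and 11 in the other group, and 10.9% of them were uniquely placed. Cfb overlaps the read-through gene Gm20547, which runs on the same strand into the neighbouring complement gene C2, so reads in its exons fit more than 1 gene. The counts of Cfb are uncertain for that reason. The log2 fold change was 0.12 (SE 0.29, adjusted p = 0.890 in edgeR) on gene reads and -0.25 on exon reads.

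Beside these 2 members, 22 other complement components were in the tables and 7 were tested. C1s1, the gene of the C1s protease that starts the classical pathway, was the 1 that passed, and it fell: it had 112 and 233 reads in WT libraries against 71 and 48 in those labelled Nfat5-/- (log2 fold change -1.64, SE 0.27, adjusted p = 0.0412 in edgeR). The call was lost with the replicate number as a block (adjusted p = 0.0662), in limma-trend (0.0510 on log2(RPKM + 1)) and when either library labelled Nfat5-/- was left out (0.155 without replicate 1, 0.302 without replicate 2). C1ra, the gene of its partner protease and named here after its values were seen, had 41 and 83 reads in WT libraries against 22 and 15 in those labelled Nfat5-/- (log2 fold change -1.85, SE 0.35, adjusted p = 0.0620 in edgeR and 0.0367 in DESeq2). Both proteases lay in the same direction, whereas the C3 groups overlapped.

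Of 17 complement regulators and receptors, 6 were tested, and none passed in edgeR or DESeq2 or had an unadjusted p under 0.05. Clu, the gene of clusterin, a secreted inhibitor of the terminal pathway, had 609 and 2092 reads in WT libraries against 2482 and 2559 in those labelled Nfat5-/- (log2 fold change 0.87, SE 0.38, adjusted p = 0.350). WT replicate 1 alone was low, and the value rested on it: without WT replicate 2 the log2 fold change was 1.71 (adjusted p = 0.00158), and without WT replicate 1 it was 0.36 (adjusted p = 0.531). Cd55, whose product speeds the decay of the C3-cleaving enzymes on cells, had 224 and 212 reads in WT libraries against 305 and 413 in those labelled Nfat5-/- (log2 fold change 0.60, SE 0.29, adjusted p = 0.396). Its size also rested on single libraries, with 0.14 without Nfat5-/- replicate 2 and 0.95 without Nfat5-/- replicate 1. The regulators thus showed no common direction, with 3 of the 6 above 0 and 3 below.

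Of the 8 members, 6 passed the filter on low counts. Of the 5 other than Lcn2, 0 passed the edgeR test, against 1.27% of all genes tested (160 of 12614), with 0.943% called higher. An unadjusted p under 0.05 was reached by 1 of the 5, Defb14, against 14.6% of all genes, and DESeq2 called 0 of the 5, against 3.22%. Defb14 was also the 1 of these 5 whose groups did not overlap, against 47.8% of all genes, 23.3% with the higher values in the libraries labelled Nfat5-/- and 24.5% with the lower. On the RPKM scale, genes were counted when their group means stood at least 2-fold apart, when the greater mean was no lower than 2 RPKM and when the groups did not overlap. Of the 8 members 5 reached that level, and Lcn2 and Defb14 were counted as higher. Of the 9273 genes that reached it, 2.28% were counted, 1.67% as higher. Since Lcn2 was picked on this contrast, nothing is read from its share of that count.

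The 10 wider lists comprised lipocalins, iron handling, upstream receptors and ligands, transcription factors, complement, defensins, WAP proteins, acute phase proteins and other antimicrobial genes. They held 94 tested genes, of which 0 were defensins. The median log2 fold change of the 94 was 0.04, against -0.01 over all genes. Of the 94, 2 passed in edgeR (2.13%), C1s1 and S100a7a, both lower in the libraries labelled Nfat5-/-. Among all genes 0.325% were called lower. DESeq2 called 9 of the 94, with 6 higher and 3 lower, against 3.22% of all genes. In edgeR, 21 reached an unadjusted p under 0.05, against 14.6% of all genes. On the RPKM scale 59 genes of the wider lists reached the level of the rule. Of these 3 were higher (Adm, S100a8 and S100a9), against 1.67% of all genes, and 2 lower (C1s1 and S100a7a), against 0.604%. The balance of directions thus changed with the method.

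**Figure D2:**
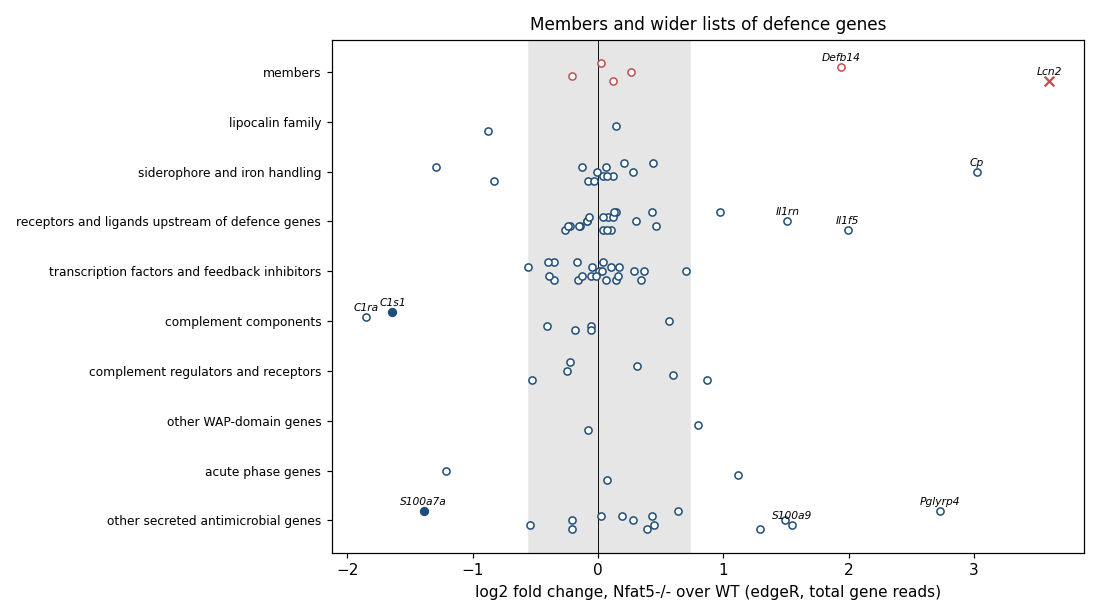
Log2 fold change of the libraries labelled Nfat5-/- over WT on the horizontal axis for each tested gene, with the members in red on top and 1 row for each wider list that held a tested gene. Filled points passed an adjusted p of 0.05 in edgeR (C1s1 and S100a7a), open points did not, the cross is Lcn2, for which no call is shown because it was chosen on this contrast, and the grey band holds the central part of all genes, from the 5th to the 95th percentile (-0.55 to 0.73).

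Lipocalins and iron genes were read first beside Lcn2. Of 15 other genes in the lipocalin list, 10 had 0 reads, and the 2 tested, Ptgds and Orm1, had at most 22 reads in a library. In the libraries labelled Nfat5-/- Lcn2 had more reads than any other gene of the list. Its receptor gene Slc22a17 had 10 and 13 reads in WT libraries against 6 and 8 in the other group (log2 fold change -0.83, SE 0.51, adjusted p = 0.519 in edgeR). Of 14 tested iron genes none passed in edgeR, 3 had an unadjusted p under 0.05, and 1, Cp, passed in DESeq2 (14.6% and 3.22% of all genes). The ferritin chains Fth1 and Ftl1, which store iron, had log2 fold changes of -0.01 and 0.06, and Tfrc, the receptor that brings iron in, had 0.12. Slc40a1, the iron exporter ferroportin, had 134 and 168 reads in WT libraries against 225 and 222 in those labelled Nfat5-/- (log2 fold change 0.44, SE 0.19, adjusted p = 0.338). Steap4, a metal reductase induced in inflammation, had 39 and 81 reads against 108 and 52 and no common order within the groups (log2 fold change 0.28, SE 0.34, adjusted p = 0.760). Cp, the gene of the secreted copper oxidase ceruloplasmin and named after its values were seen, had 1 and 15 reads in WT libraries against 94 and 49 in those labelled Nfat5-/- (log2 fold change 3.02, SE 0.64, adjusted p = 0.0811 in edgeR and 0.00321 in DESeq2). Heph, the gene of its membrane homologue hephaestin and also named afterwards, lay the other way, with 41 and 27 reads in WT libraries against 14 and 17 (log2 fold change -1.29, SE 0.48, adjusted p = 0.282 in edgeR).

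Of 22 tested receptors and ligands that act upstream of defence genes, none passed in edgeR, 4 had an unadjusted p under 0.05, and 2 passed in DESeq2 (14.6% and 3.22% of all genes). The shared interleukin-17 receptor chain Il17ra had a log2 fold change of -0.26 (SE 0.14, adjusted p = 0.453), Il1r1 of 0.10 (SE 0.23, adjusted p = 0.882) and the interleukin-36 receptor chain Il1rl2 of -0.22 (SE 0.15, adjusted p = 0.575) in edgeR. The 2 genes nearest the threshold encode receptor antagonists of the interleukin-1 family. Il1f5, the gene of the interleukin-36 receptor antagonist, had 19 and 17 reads in WT libraries against 106 and 57 in those labelled Nfat5-/- (log2 fold change 1.99, SE 0.35, adjusted p = 0.0510 in edgeR). Under DESeq2 its adjusted p was 0.0102. Il1rn, the gene of the interleukin-1 receptor antagonist, had 29 and 33 reads in WT libraries against 131 and 69 in the other group (log2 fold change 1.51, SE 0.30, adjusted p = 0.0714 in edgeR and 0.0343 in DESeq2). Both antagonist genes were higher in each library labelled Nfat5-/- than in each WT library. Their calls changed with the tool and with the settings of edgeR. For Il1f5 the adjusted p in edgeR was 0.0468 with RLE factors and 0.0333 on uniquely placed exon reads. For Il1rn it was 2.64e-05 in edgeR without a filter on low counts, where 6.3% of all genes passed. Il1f9, the gene of the agonist interleukin-36 gamma and named after its values were seen, was also higher in both libraries labelled Nfat5-/-. It had 29 and 22 reads in WT libraries against 73 and 41 (log2 fold change 0.97, SE 0.37, adjusted p = 0.304 in edgeR).

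Of 23 tested transcription factors and feedback inhibitors, none passed in edgeR or DESeq2 and 5 had an unadjusted p under 0.05 (14.6% of all genes), and their log2 fold changes ran from -0.56 to 0.70. The NF-kB subunit genes Nfkb1 and Rela had log2 fold changes of -0.16 (SE 0.12) and -0.05 (SE 0.10), and the C/EBP genes Cebpb and Cebpd both had -0.35, with SEs of 0.23 and 0.25. The ends of the range were Elf3, an epithelial factor of the ETS family, and Socs1, an inhibitor of cytokine signalling. Elf3 had 93 and 117 reads in WT libraries against 216 and 161 in those labelled Nfat5-/- (SE 0.18, adjusted p = 0.131 in edgeR). Socs1 had 118 and 127 reads against 114 and 73 (SE 0.22, adjusted p = 0.315). Most of these regulators thus lay near 0, on both sides of it.

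Of 15 tested genes in the list of other secreted antimicrobial proteins, S100a7a passed, and it fell. S100a7a, an S100 protein of the epidermis related to psoriasin, had 205 and 238 reads in WT libraries against 102 and 85 in those labelled Nfat5-/- (log2 fold change -1.39, SE 0.18, adjusted p = 0.0251 in edgeR). The call was lost without Nfat5-/- replicate 1 (adjusted p = 0.120) or replicate 2 (0.158). The genes of calprotectin, a metal-binding antimicrobial pair named after their values were seen, lay in the other direction. S100a8 had 73 and 69 reads in WT libraries against 241 and 153 in those labelled Nfat5-/- (log2 fold change 1.29, SE 0.24, adjusted p = 0.0563), and S100a9 had 36 and 37 against 153 and 89 (log2 fold change 1.55, SE 0.28, adjusted p = 0.0510). Both missed the threshold in edgeR and passed in DESeq2 (adjusted p = 0.00605 and 0.0101). Pglyrp4, which binds bacterial cell wall peptidoglycan and was also named afterwards, had 2 and 6 reads against 26 and 32 (log2 fold change 2.73, SE 0.55, adjusted p = 0.0725). This list thus held genes on both sides, with 11 of 15 above 0 and 4 below.

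The genes whose pattern over the 4 libraries was nearest to that of Lcn2 were found by the distance between log2 CPM values centred on each gene's mean. The nearest 5 were Ly6g6c (distance 0.632), a gene of the Ly6 family of cell surface proteins, Slc5a1 (0.711), a sodium and glucose cotransporter, Tmprss4 (0.732), a membrane serine protease, Cldn6 (0.766), a tight junction claudin, and Hpgd (0.784), the enzyme that inactivates prostaglandins. Ly6g6c had 26 and 14 reads in WT libraries against 242 and 285 in those labelled Nfat5-/-. The others went from 6 to 35 reads in WT libraries to 67 to 354 in the other group. The distance rests on 4 points per gene, and with log2(RPKM + 1) in its place 0 of the 5 stayed among the nearest.

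C3 and Slpi, whose groups overlapped, shared another order. In both, WT replicate 2 and Nfat5-/- replicate 1 lay above the other 2 libraries, by a fold of 1.66 for C3 and 1.35 for Slpi between the means of these pairs. This order was seen in 14.4% of all genes tested and in 24 of the 94 genes of the wider lists, 10 of them among the 23 transcription factors and feedback inhibitors. It was noticed after the values were seen and has no test. The chemokine genes Cxcl5 and Cxcl1 had it with folds of 2.70 and 1.89, Tnf with 2.15, Il1a with 1.46, and Tnfaip3, a feedback inhibitor of NF-kB signalling, with 1.65. Cxcl5, for instance, had 826 and 3426 reads in WT libraries against 5467 and 1700 in those labelled Nfat5-/-. These libraries also held the most gene reads (21612980 and 23494436), although CPM accounts for depth, and the part of depth in this order was not tested. Lcn2 and Defb14 did not have it, since both libraries labelled Nfat5-/- were above both WT libraries in each.

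**Figure D3:**
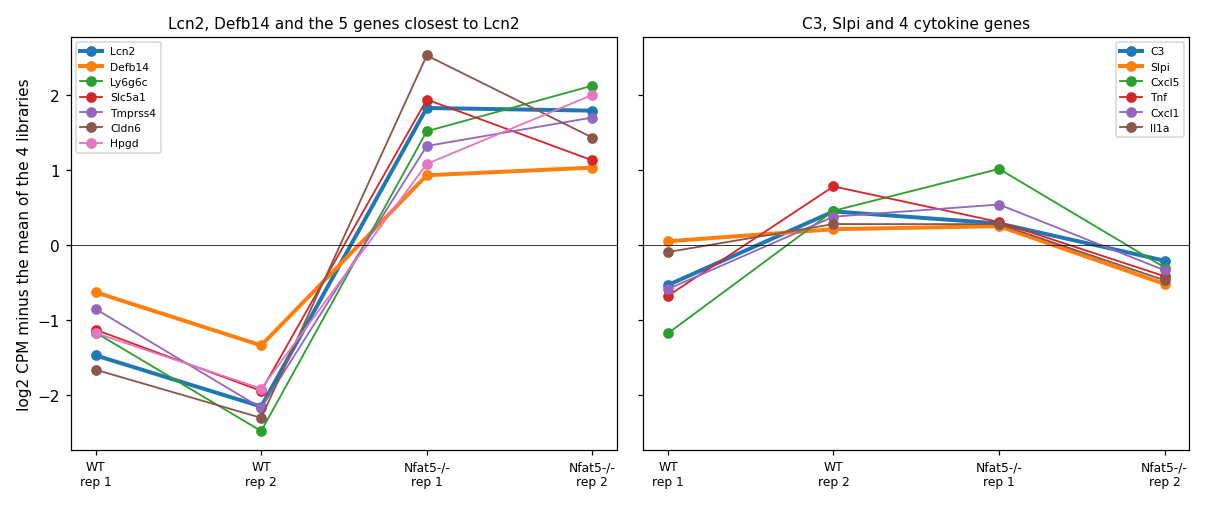
Log2 CPM minus the gene's own mean over the 4 libraries (vertical axis) in each library (horizontal axis), with lines that only join the points of a gene and thick lines for members. On the left Lcn2, Defb14 and the 5 genes nearest to Lcn2 are higher in both libraries labelled Nfat5-/-, and on the right C3, Slpi, Cxcl5, Tnf, Cxcl1 and Il1a are higher in WT replicate 2 and Nfat5-/- replicate 1.

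Summed levels of macrophage and dendritic cell markers were 18.7 to 24.2 RPKM, most of it Cd68, which KCs also express. Fibroblast markers summed to 6.79 to 8.82 RPKM, of which Fbln1 held 5.65 to 8.19 RPKM, while Col1a1 had 34 to 91 reads, Pdgfra had 19 and 14 reads in WT libraries against 38 and 26, and Col1a2, Col3a1, Dcn and Lum had at most 6 reads in a library. Endothelial markers summed to 4.92 to 6.01 RPKM, of which Egfl7 held 4.23 to 5.22 RPKM, while Kdr had 64 to 66 reads, Pecam1 had 34 and 39 reads in WT libraries against 30 and 20, and Cdh5 and Vwf had at most 3 reads in a library. The part of these markers in the differences of the members was not tested. The T cell and mast cell markers summed to 0.220 to 1.24 RPKM. The highest sum was in WT replicate 2, with 75 reads against 29 in WT replicate 1 and 41 and 35 in the libraries labelled Nfat5-/-. Its part in the levels of the members was not tested either. Of the 27 marker genes tested, 0 passed in edgeR, 4 had an unadjusted p under 0.05, and 2, S100a8 and S100a9, passed in DESeq2.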

How the data were processed

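The authors aligned 59-base single reads of poly(A) RNA to GRCm38 with the CLC Genomics Workbench at default RNA-Seq settings. They deposited, for each gene and library, read counts (gene, exon, intron, junction and uniquely placed reads, not normalized) and RPKM values, here read from text with decimal commas. Whether strand was used in counting is not given in the sources used here. Groups came from the sample labels. Total gene reads were tested with edgeR 4.0.16 in R 4.3.3 (filterByExpr, TMM factors, quasi-likelihood test, genotype as the sole term, two-sided). Benjamini-Hochberg adjustment ran across the 12614 genes that passed the filter, and calls were made at 0.05. SE is the log2 fold change divided by the square root of F. P-values measure the spread between these few cultures. The members and lists were chosen with earlier results of these data known, and the named genes are the members, the genes called in each list or otherwise the 2 with the greatest change among those whose higher group mean reached 1 RPKM, the 5 nearest to Lcn2, and Nfat5. Other genes were named after their values were seen.

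Depth ranged from 16219445 to 23494436 reads, and floors and intervals cover counting error only, since no molecular identifiers were used. Alternatives were other scaling factors, filters and read classes, DESeq2 1.42.0, limma-trend (limma 3.58.1) on log2(RPKM + 1) and log2(RPKM + 0.1) for genes of at least 1 RPKM, a replicate block and each library left out. The procedure was tested on simulated counts. Of 232 genes written in the wider lists, 227 were found in the tables and the others were not analysed here.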

Additional observations from a re-analysis of the deposited data

How the results depend on the processing

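Over all genes, the 160 calls became 1137 without a filter on low counts and 416 with DESeq2, and ranged from 16 to 478 when each library was left out in turn (16 without Nfat5-/- replicate 2, 31 without Nfat5-/- replicate 1, 268 without WT replicate 1 and 478 without WT replicate 2). Of the members other than Lcn2, 0 passed in edgeR and 1, Defb14, passed without the filter, and 1 in each of the limma-trend fits on log2(RPKM + 1) and log2(RPKM + 0.1). The 13 alternatives that gave Defb14 a value (it fell under the filter of 10 reads in every library) kept it higher, with log2 fold changes of 1.60 to 2.31 and adjusted p from 0.000381 to 0.444. Lcn2 stayed between 2.18 and 3.95 on the log2 scale. The 2 calls in the wider lists became 4 with RLE factors, 6 with library totals, 18 without the filter, 5 with at least 10 reads in every library, 9 with DESeq2, 4 with exon reads, 6 with uniquely placed exon reads and 1 with the replicate block, and ranged from 0 to 9 when a library was left out (0 without either library labelled Nfat5-/-, 8 without WT replicate 1 and 9 without WT replicate 2). The 211 genes of the RPKM rule became 120 with a mean of at least 5 RPKM and 500 with a ratio of at least 1.5. Of the 5 genes nearest to Lcn2, 0 were kept with log2(RPKM + 1).

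Signs turned for 13 of 345 values over 25 genes. With each library left out in turn, log2 fold changes ran from -0.65 to 0.12 for Slpi, from -0.16 to 0.79 for Defb1, from -0.38 to 0.60 for C3, from -0.23 to 0.53 for Nfat5, from -0.11 to 0.64 for Steap4, from -1.35 to 0.63 for Wfdc18 and from -0.02 to 0.16 for Cd14. Library totals turned C3 (-0.0014), and exon reads turned Cfb (-0.25). None of these was called in any of these fits, and the cause was not tested. Same-numbered replicates did not deviate together (correlation -0.0652), so the numbers are not taken as pairs. The replicate block gave 132 calls over all genes. In fits that left a group with 1 library, that library was assumed to vary like the other group. Depth limits Camp, which had 0 reads and could not be tested, and Saa3, which failed the filter on low counts of the main fit. It also limits Cfb, whose exon reads were few.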
